A study of Homo sapiens with 8 samples.

Results

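The RNA of 9 lysosomal glycosidases was followed in A549 cells that had been stretched and then sorted by β-galactosidase staining. The genes were taken by name from the deposited count table: GLB1, HEXA, GUSB, GAA, GLA, NEU1, FUCA1, FUCA2 and MANBA. All 9 had an entry among the 13751 gene symbols of the table, and NEU1 stood on 3 rows, so the 9 genes came to 11 rows. All 11 rows passed the filter on low counts, which kept 11351 of 13841 rows.

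A549 is an established human lung adenocarcinoma line, often used as a stand-in for alveolar epithelium. All cells had undergone cyclic stretch for 24 h (15% elongation, 15 cycles per min) and were kept for 6 days before sorting. The positive group (labelled senescent) held the cells with β-galactosidase staining, libraries 1, 3, 4 and 5, and the negative group (labelled non-senescent) held those without it, libraries 2, 6, 7 and 8. Both groups were therefore stretched cells of 1 line, and unstretched cells were not analysed here. The comparison asks whether the enzyme behind the sorting stain, and its relatives, differed in RNA between the sorted groups.

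Lysosomal glycosidases remove sugars one at a time from the ends of glycolipids, glycoproteins, glycosaminoglycans and glycogen in the acid interior of the lysosome. They are made in the endoplasmic reticulum, tagged with mannose 6-phosphate in the Golgi and carried to lysosomes by receptors for that tag. β-galactosidase, the product of GLB1, is the enzyme whose activity is read by the senescence-associated stain, so the stain reports enzyme activity in lysosomes and not RNA.

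Depth ranged from 5634961 to 7990839 counts per library. Values are given as CPM, that is counts scaled to a common library size, after TMM scaling, which adjusts for differences in composition between libraries. In the targeted amplicon kit used, each gene is read through its own short amplicon, so CPM values are compared between libraries for 1 gene and not between genes. Sums over genes are likewise compared only between libraries, and genes of high CPM weigh most in them. The epithelial markers EPCAM, KRT7, KRT8, KRT18, KRT19, CDH1 and CLDN4 were all counted in every library, and their summed level was 2535 to 2995 CPM in positive and 2762 to 3564 in negative cells. Of 7 alveolar type 2 markers, 4 had a row, and the defining surfactant genes SFTPC and SFTPB had at most 3 counts in any library. ABCA3 and LAMP3 were counted in every library. The sum of the 4 was 19.4 to 37.3 CPM in positive and 17.0 to 28.9 in negative cells. Of 7 leukocyte and macrophage markers 4 had a row (PTPRC and CSF1R had none), with a sum of 71.7 to 76.2 CPM in positive and 57.7 to 75.95 in negative cells. Of 7 fibroblast markers 5 had a row, at 11.1 to 14.3 CPM in positive and 8.72 to 13.03 in negative cells, and of 5 endothelial markers 1 had a row, CDH5, with 0 to 9 counts per library. Positive 1 and negative 2 lay farthest from the average profile, with a root mean square deviation over all tested rows of 0.61 and 0.72 on the log2 scale, against 0.31 to 0.41 in the other 6 libraries.

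Stained cells did not carry detectably more GLB1 RNA than unstained cells, and no glycosidase of the 9 differed between the groups past the threshold. In edgeR's quasi-likelihood test of positive against negative cells, 0 of the 11 rows had an adjusted p under 0.05, as did 0% of all 11351 tested rows. The log2 fold changes of the 11 rows ranged from -0.47 (HEXA) to 0.46 (GUSB). GUSB, the β-glucuronidase that removes glucuronic acid from glycosaminoglycans, had an unadjusted p under 0.05, with the higher mean in positive cells. That is 1 of 11 rows, or 9.09%, and the share over all tested rows was 14.4% (7.52% with the higher and 6.85% with the lower level in positive cells). In 0 of the 11 rows did the groups lie apart without overlap, against 9.14% of all tested rows (5% higher and 4.14% lower in positive cells). In bulk RNA, fewer cells that express a gene and less RNA per cell cannot be told apart. Separate cultures are not named in the labels, and the spread on which the p-values rest may then be technical.

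**Figure D1:**
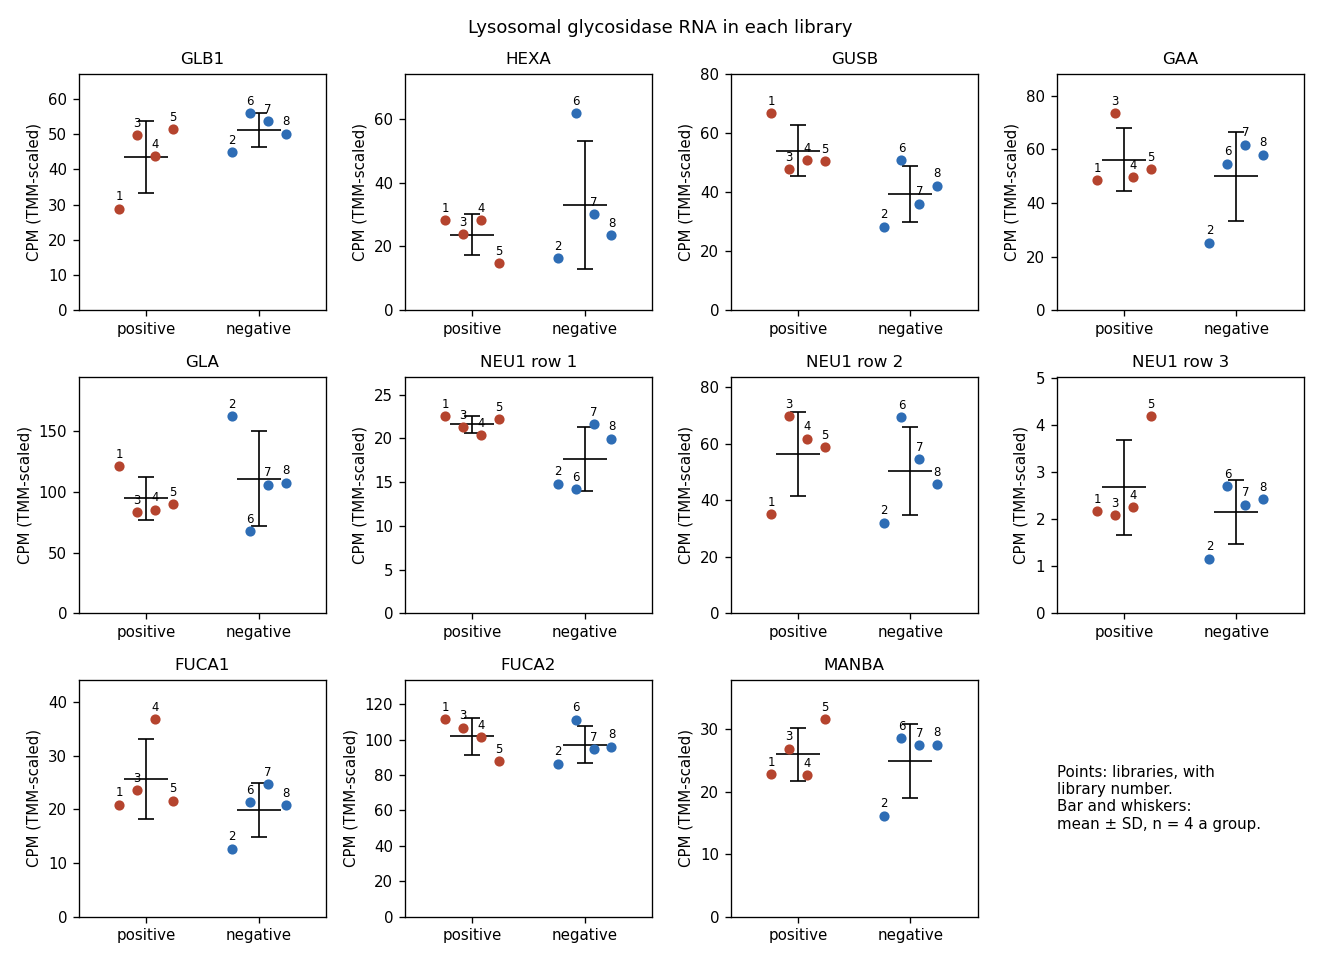
CPM (TMM-scaled, linear axis from 0) of the 11 rows in positive (red) and negative (blue) libraries, each point labelled with its library number, with mean and SD of 4 libraries a group. The groups overlap in all 11 panels, and positive 1 is the lowest library for GLB1 at 28.9 CPM.

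GLB1 lies on chromosome 3 at 32996608 to 33097230 on the minus strand (GRCh38, GENCODE v29, protein-coding). Its level was 28.9, 49.8, 43.7 and 51.5 CPM in positive 1, 3, 4 and 5 and 44.9, 56.0, 53.7 and 50.2 CPM in negative 2, 6, 7 and 8. The lowest library of all was positive 1 and the highest negative 6, with positive 3 and 5 inside the negative range. The means were 43.5 ± 10.3 CPM in the stained against 51.2 ± 4.83 CPM in the unstained libraries (SD, n = 4 each). This is a log2 fold change of -0.23 ± 0.20 (SE), with an edgeR adjusted p of 0.569. With all libraries the 95% interval ran from 0.63-fold to 1.15-fold, so a rise of GLB1 RNA above 1.15-fold lay outside it. That limit includes the low library positive 1 and rests on TMM scaling, and no interval was worked out without them. Scaled by library totals instead, the log2 estimate was -0.13 ± 0.21 (SE). Without positive 1 the log2 estimate was -0.084 ± 0.16 (SE), and without both positive 1 and negative 2 it was -0.12 ± 0.15 (SE). A shorter gene, TMPPE, overlaps GLB1 on the same strand and had 2 to 8 counts per library.

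GLB1 protein forms a complex in the lysosome with the serine carboxypeptidase CTSA, also called protective protein, and with NEU1, the sialidase that removes terminal sialic acid. NEU1 lies on chromosome 6 at 31857659 to 31862906. Its 3 rows held 26%, 70.8% and 3.2% of the NEU1 counts over all libraries, and since reads may be shared out among rows of 1 gene, single rows are uncertain. Summed over the rows, NEU1 was at 59.7, 93.2, 84.5 and 85.0 CPM in positive 1, 3, 4 and 5 and at 48.1, 86.4, 78.6 and 68.0 CPM in negative 2, 6, 7 and 8. Negative 2 and positive 1 were the lowest libraries, and the groups overlapped. The log2 fold change of the sum was 0.20 ± 0.21 (SE; edgeR adjusted p 0.650), and the rows taken singly were at 0.29, 0.16 and 0.32. The second row was at 0.013 without negative 2, and the third at 0.019 without positive 5. CTSA was at 190 ± 26.9 CPM in the stained against 173 ± 29.4 in the unstained libraries (SD, n = 4 each), or in log2 fold change 0.14 ± 0.18 (SE; edgeR adjusted p 0.711). Leaving out positive 3 gave 0.054 for CTSA, leaving out negative 2 gave 0.077 and leaving out negative 6 gave 0.25.

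The balance between these partners can be read within each library, where scaling cancels. The log2 ratio of GLB1 to NEU1 counts was -1.05, -0.90, -0.95 and -0.72 in positive 1, 3, 4 and 5, against -0.099, -0.62, -0.55 and -0.44 in negative 2, 6, 7 and 8. Every positive library was thus below every negative one, the nearest being positive 5 and negative 6. Of single rows, 9.14% of all tested ones separated the groups in CPM in either direction. How often ratios of other gene pairs do so was not computed. The means were -0.91 ± 0.14 and -0.43 ± 0.23 (SD, n = 4 each), a difference of -0.48. The exact two-sided permutation p was 0.0286, and no smaller value exists for groups of this size. Corrected for the 4 ratios by the Benjamini-Hochberg method, it became 0.0571. Full separation of 1 ratio alone cannot bring the corrected value under 0.05, so that value does not decide whether the ratio differed.

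The ratio of GLB1 to CTSA was likewise lower in all 4 positive libraries, at -2.47, -2.16, -2.02 and -1.96 in positive 1, 3, 4 and 5 against -1.68, -1.93, -1.67 and -1.69 in negative 2, 6, 7 and 8. The difference in means was -0.41 (exact permutation p = 0.0286, adjusted 0.0571). Positive 5 and negative 6 were the nearest pair. Both ratios contain GLB1 and are not independent of each other, and neither has a background share of other ratios beside it. Full separation of these 2 alone leaves the adjusted p above 0.05, so the adjusted values do not decide whether either ratio differed. NEU1 to CTSA differed by 0.07 (exact permutation p = 0.571, adjusted 0.571), with the groups overlapping. Without both positive 1 and negative 2 the difference was -0.32 for GLB1 to NEU1 and -0.28 for GLB1 to CTSA, and for each the exact permutation p was 0.1, the smallest that 3 against 3 libraries allow. Amplicons differ in efficiency, so the level of a ratio has no meaning by itself and only its difference between groups is read.

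**Figure D2:**
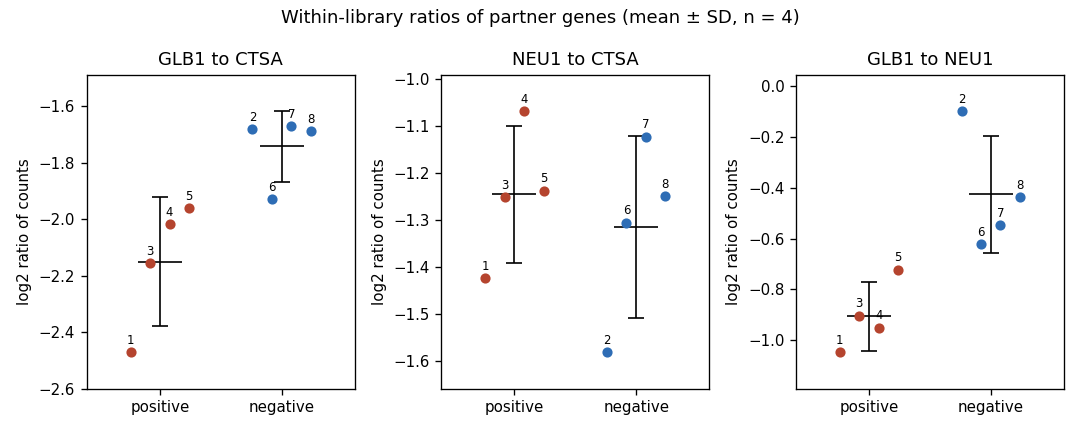
Log2 ratio of counts within each library for 3 pairs of genes whose proteins form a complex, in positive (red) and negative (blue) libraries with library numbers, mean and SD. The GLB1 to NEU1 and GLB1 to CTSA ratios do not overlap between groups, with differences of -0.48 and -0.41, whereas those of NEU1 to CTSA do. Of single tested rows 9.14% do not overlap in CPM, and no such share was computed for ratios.

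HEXA encodes the α subunit of β-hexosaminidase A, which removes N-acetylgalactosamine from the ganglioside GM2. HEXA lies on chromosome 15 at 72340919 to 72376476, and a longer protein-coding gene model on the same strand covers 35063 of its bases. Its level was 28.2, 23.8, 28.2 and 14.7 CPM in positive 1, 3, 4 and 5 and 16.3, 61.9, 30.1 and 23.5 CPM in negative 2, 6, 7 and 8. Negative 6 stood above all others and both groups had a low library, positive 5 and negative 2. HEXA had the widest spread of the 9 genes, 4.22-fold between the extreme libraries. The groups differed by -0.47 ± 0.36 on the log2 scale (SE; edgeR adjusted p 0.530). Removing negative 6 gave 0.021, removing negative 2 gave -0.68, and removing both positive 1 and negative 2 gave -0.77. Without negative 2 HEXA had an unadjusted edgeR p of 0.0473 (adjusted 0.510). In that fit it was the 1 of the 11 rows with an unadjusted p under 0.05, beside 9.7% of all 11510 tested rows. GM2A, the activator that lifts GM2 out of the membrane for this enzyme, was at 31.1 ± 3.42 CPM in the stained against 32.5 ± 4.12 CPM in the unstained libraries (SD, n = 4 each). Its log2 fold change of -0.061 was 0.00057 without negative 8 and 0.046 when scaled by library totals.

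GUSB had the largest positive estimate. It lies on chromosome 7 at 65960684 to 65982314. Its level was 66.9, 48.0, 50.90 and 50.6 CPM in positive 1, 3, 4 and 5 and 28.4, 50.94, 36.1 and 42.2 CPM in negative 2, 6, 7 and 8. Negative 6 lay within the positive range and the other 3 negative libraries below it. The means were 54.1 ± 8.65 and 39.4 ± 9.55 CPM (SD, n = 4 each), which in log2 fold change is 0.46 ± 0.21 (SE), or 1.37-fold with a 95% interval from 1.0045-fold to 1.87-fold. The unadjusted edgeR p was 0.0473 and the adjusted p 0.345. Its estimate was 0.34 without positive 1, 0.34 without negative 2 and 0.23 without both, and in these 3 fits the unadjusted edgeR p was 0.124, 0.0906 and 0.185. GUSB has closely similar pseudogenes, of which GUSBP1, GUSBP2, GUSBP5 and GUSBP9 had rows with 0 to 32 counts per library against 195 to 401 counts for GUSB, and reads may be wrongly shared among them.

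The glycogen-degrading α-glucosidase GAA and the α-galactosidase GLA, which acts on globotriaosylceramide, had estimates that changed sign without 1 library. GAA lies on chromosome 17 at 80101556 to 80119879 and was at 48.6, 73.6, 49.7 and 52.6 CPM in positive 1, 3, 4 and 5 and at 25.2, 54.7, 61.8 and 58.0 CPM in negative 2, 6, 7 and 8. All negative libraries but 1 thus stood above 3 of the positive ones, and the low library was negative 2. GAA thus had a log2 fold change of 0.17 ± 0.26 (SE; edgeR adjusted p 0.763), of -0.036 without negative 2 and of 0.010 without positive 3.

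GLA lies on chromosome X at 101397803 to 101408012, wholly within the read-through gene RPL36A-HNRNPH2 on the opposite strand, which has its own row. Its level was 121, 83.0, 85.1 and 89.9 CPM in positive 1, 3, 4 and 5 and 162, 67.7, 106 and 108 CPM in negative 2, 6, 7 and 8. Both extremes were negative libraries. GLA was the one gene of the 9 for which negative 2 was the highest library. The log2 fold change was -0.23 ± 0.24 (SE; edgeR adjusted p 0.655), with 0.029 without negative 2 and -0.41 without negative 6. No source used here gives whether counting used strand, so reads from the GLA stretch of RPL36A-HNRNPH2 and from GLA may not be told apart. RPL36A-HNRNPH2 was at 47.9 ± 7.11 CPM in the stained against 71.3 ± 20.9 in the unstained libraries (SD, n = 4 each). The groups overlapped, with 272 to 448 counts per positive and 328 to 566 per negative library. Whether its reads bear on the GLA values was not tested.

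The 2 fucosidase genes differed in spread. FUCA1, the lysosomal α-L-fucosidase (chromosome 1 at 23845077 to 23868294), was at 20.9, 23.5, 36.8 and 21.6 CPM in positive 1, 3, 4 and 5 and at 12.7, 21.3, 24.7 and 20.8 CPM in negative 2, 6, 7 and 8. Positive 4 was high and negative 2 low, and the other 6 libraries lay between 20.8 and 24.7 CPM. Between the groups FUCA1 differed by a log2 fold change of 0.37 ± 0.26 (SE; edgeR adjusted p 0.491), 0.16 without positive 4 and 0.22 without negative 2. FUCA2, whose product is largely secreted (chromosome 6 at 143494811 to 143511690), was the steadiest of the 9 genes, with a coefficient of variation of 9.98% over 8 libraries. It was at 111.5, 107, 102 and 87.7 CPM in positive 1, 3, 4 and 5 and at 86.4, 111.4, 94.5 and 96.0 CPM in negative 2, 6, 7 and 8. Its 95% interval, from 0.83-fold to 1.33-fold, spanned no change, and its log2 fold change of 0.070 was -0.0088 without both positive 1 and negative 2.

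MANBA, the β-mannosidase that removes the last mannose of N-glycans (chromosome 4 at 102630770 to 102760994), was at 22.9, 26.9, 22.7 and 31.6 CPM in positive 1, 3, 4 and 5 and at 16.1, 28.6, 27.5 and 27.5 CPM in negative 2, 6, 7 and 8. All negative libraries but negative 2 lay within 27.5 to 28.6 CPM. MANBA had an estimate of 0.062 ± 0.23 on the log2 scale (SE; edgeR adjusted p 0.909), and of -0.083 without negative 2.

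**Figure D3:**
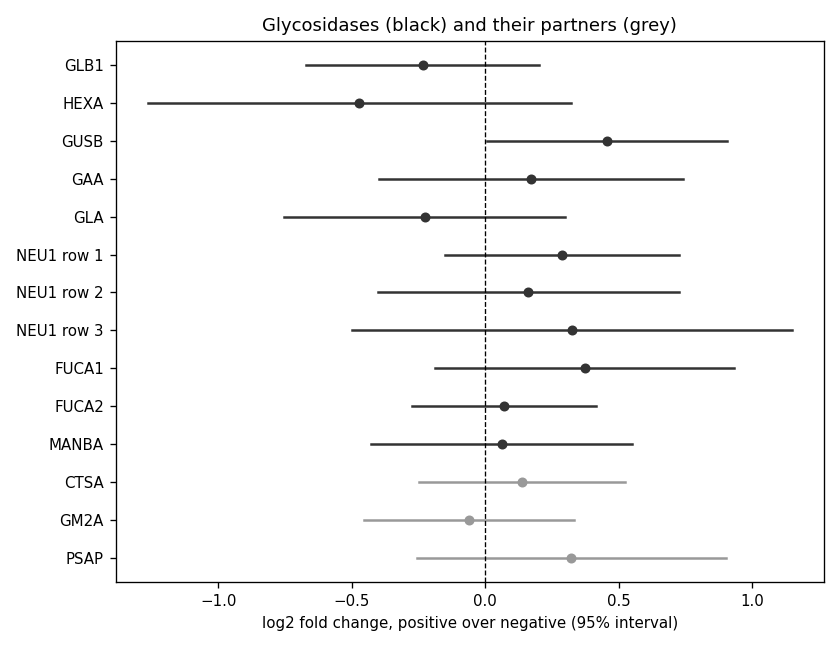
Log2 fold change of positive over negative cells with 95% intervals for the 11 rows of the 9 glycosidases (black) and for CTSA, GM2A and PSAP (grey). The interval of GUSB starts just above 0 and all others span 0.

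Across libraries, negative 2 was the lowest library for 7 of the 11 rows, with a median deviation of -0.66 on the log2-CPM scale, and the highest for 1, GLA. The median deviation of the 11 rows in the other 7 libraries lay between -0.072 and 0.17. Positive 1, the other library far from the average profile, was the highest for 3 rows, GUSB, FUCA2 and the first row of NEU1, and the lowest for GLB1. Summed over all 11 rows, the level was 506 ± 17.8 CPM in the stained against 496 ± 41.8 CPM in the unstained libraries (SD, n = 4 each), with negative 2 lowest at 440.2 CPM and negative 6 highest at 539 CPM. The rows of highest CPM, FUCA2 and GLA, weigh most in this sum.

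**Figure D4:**
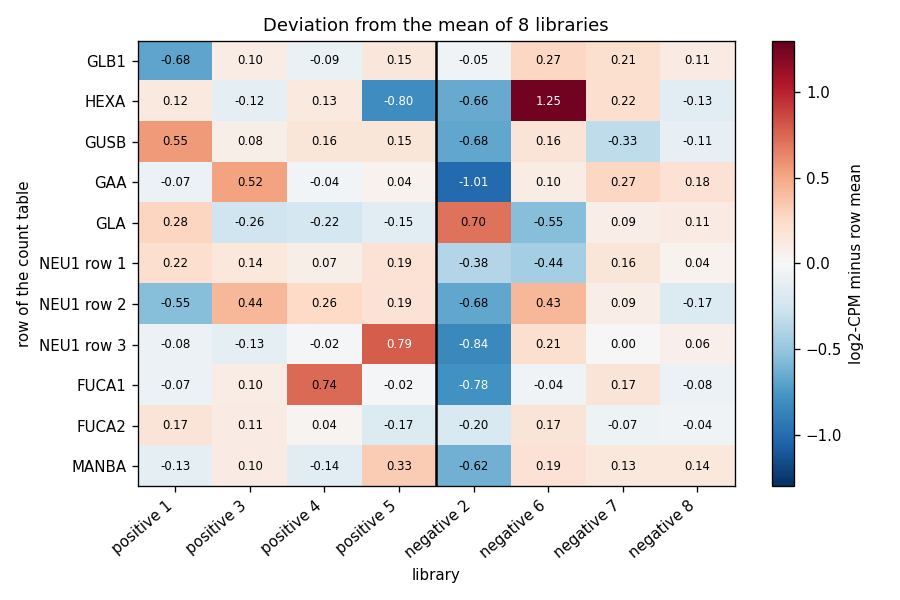
Log2-CPM of each row minus its mean over 8 libraries, positive libraries to the left of the line and negative to the right. Negative 2 is low in all rows but GLA (0.70), with GLB1 at -0.050, and positive 1 is low for GLB1 (-0.68) and high for GUSB (0.55).

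The genes whose course over the 8 libraries was nearest to that of GLB1 were not glycosidases. By the root mean square distance between centred log2-CPM profiles, among 7945 genes with a mean of at least 10 CPM, they were HSD17B11 (0.053), COCH (0.063), PRDX1 (0.073), KLC4 (0.078) and STEAP1 (0.086), where the median gene was at 0.39. HSD17B11 was at 62.9, 102, 89.3 and 103 CPM in positive 1, 3, 4 and 5 and at 90.0, 116, 115 and 96.3 CPM in negative 2, 6, 7 and 8, with positive 1 lowest as for GLB1. Of the other glycosidases MANBA was nearest to GLB1, at 0.29 and rank 1894, and HEXA farthest, at 0.62. Such a distance favours genes of the same amplitude and says nothing on shared function.

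The wider pathway was described with fixed lists, none tested as a list. Of 13 further lysosomal glycosidases, 12 had a row and 10 were tested, with a median log2 fold change of 0.11 against -0.019 over all tested rows. None passed an adjusted p of 0.05, and 1 higher and 0 lower had an unadjusted p under 0.05, which is 10% of the list beside 14.4% of all tested rows. The 1 gene was IDUA, the α-L-iduronidase that acts on heparan and dermatan sulfate, at 17.9, 14.6, 15.3 and 8.91 CPM in positive 1, 3, 4 and 5 and 5.38, 11.3, 8.95 and 7.56 CPM in negative 2, 6, 7 and 8, a log2 fold change of 0.77 ± 0.28 (SE; edgeR adjusted p 0.312). Positive 5 lay within the negative range. Without both positive 1 and negative 2 IDUA was at 0.50. MAN2B2 was at 0.38 and NAGLU at 0.47, the latter at 0.26 without negative 2 and 0.20 without both, and the summed level of the list was 321 ± 24.5 CPM in the stained against 284 ± 57.1 in the unstained libraries (SD, n = 4 each).

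Among the 4 activators and partners (CTSA, GM2A, PSAP and SCARB2, the receptor of β-glucocerebrosidase) none had an unadjusted p under 0.05. PSAP, the precursor of the saposins that assist several of these enzymes, was at 702, 581, 613 and 493 CPM in positive 1, 3, 4 and 5 and 222, 554, 564 and 570 CPM in negative 2, 6, 7 and 8. All libraries but negative 2 lay between 493 and 702 CPM. PSAP differed by 0.32 ± 0.27 on the log2 scale (SE; edgeR adjusted p 0.557), by 0.099 without negative 2 and by 0.017 without both positive 1 and negative 2. SCARB2 was at -0.19, and at -0.12 without both.

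Of 8 lysosomal sulfatases and related genes, all tested, 6 had a log2 fold change above 0, as did 48.1% of all tested rows, and the median was 0.29. ARSA, the sulfatase of cerebroside sulfate, was the one with an unadjusted p under 0.05, or 12.5% of the list beside 14.4% of all tested rows. It was at 3.67, 3.27, 3.73 and 4.06 CPM in positive 1, 3, 4 and 5 and 0.87, 2.54, 2.93 and 1.43 CPM in negative 2, 6, 7 and 8, without overlap, as for 5% of all tested rows, at 6 to 31 counts per library (log2 fold change 0.93 ± 0.37 SE, edgeR adjusted p 0.320). SGSH was at 0.56 and HGSNAT at 0.40, and without both positive 1 and negative 2 they were at 0.29 and 0.26.

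Of 9 genes for the mannose 6-phosphate tag and its receptors, the median log2 fold change was 0.00038 and 1 had an unadjusted p under 0.05, or 11.1% of the list beside 14.4% of all tested rows. The 1 gene was GNPTG, a subunit of the phosphotransferase that begins the tag, at 103, 93.4, 81.7 and 95.6 CPM in positive 1, 3, 4 and 5 and 48.3, 60.6, 62.1 and 79.0 CPM in negative 2, 6, 7 and 8. Every positive library was above every negative one, as for 5% of all tested rows. The log2 fold change was 0.58 ± 0.18 (SE; edgeR adjusted p 0.309), and 0.44 without both positive 1 and negative 2. The catalytic subunit gene GNPTAB was at -0.30, at -0.087 without positive 1 and at 0.0044 without both. NAGPA, which uncovers the tag, was at 0.40, and the tag receptors M6PR and IGF2R were at 0.00038 and -0.023.

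Of 23 glycosidases outside the lysosome, 19 had a row and 17 were tested, with a median of 0.13, and 3 higher and 0 lower had an unadjusted p under 0.05. These were MAN2A2, a Golgi mannosidase, at 0.50 ± 0.17 (SE; edgeR adjusted p 0.309) without overlap between groups, as for 5% of all tested rows, HEXD at 0.60 and EDEM1, which marks misfolded glycoproteins for disposal, at 0.40. Their share of 17.6% stood beside 14.4% over all tested rows, and beside 9.09% for the 11 rows of the 9 lysosomal genes. Without both positive 1 and negative 2 they were at 0.48, 0.36 and 0.40. The β-galactosidase-like genes GLB1L and GLB1L2 were at -0.021 and 0.57, at means of 2.20 to 4.02 CPM.

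TFE3 and TFEB, transcription factors that switch on many lysosomal genes through sites with the letters CACGTG at their core, were at log2 fold changes of 0.65 ± 0.23 (SE; edgeR adjusted p 0.312) and 0.22 ± 0.32 (SE; edgeR adjusted p 0.753), and MITF was at 0.16. TFE3 was at 218, 171, 178 and 156 CPM in positive 1, 3, 4 and 5 and 68.8, 154, 105 and 133 CPM in negative 2, 6, 7 and 8. The groups did not overlap, as for 5% of all tested rows with the higher level in positive cells, and positive 5 and negative 6 were close. The log2 fold change of TFE3 was 0.38 without both positive 1 and negative 2. TFEB was at -0.0095 without negative 2 and 0.48 without negative 8, and MITF at 0.052 without positive 4 and 0.36 with positive 1 and negative 2 left out. Promoters of the 9 genes were searched for this motif in RefSeq windows of 300 bases (250 before and 50 after the annotated start, GRCh38.p14). The motif reads the same on either strand. A window was found for 7 genes, and 2 of the 7, GAA and NEU1, held CACGTG, which 7.26% of all 35116 windows hold. It occurs in 9.41% of the 12222 windows of tested genes. GAA held it 2 times and NEU1 1 time. The window listed for GLB1 surrounds a start that lies 408 bases downstream of the first start in GENCODE, so the sequence before the first start was not searched. The stretches of both genes are shown because they hold the letters, with CACGTG in capitals and all others in lower case, 5′ to 3′ on the strand of the gene. That of GAA is chr17:80101481-80101560 on the plus strand and that of NEU1 is chr6:31862907-31862981 on the minus strand.
GAA: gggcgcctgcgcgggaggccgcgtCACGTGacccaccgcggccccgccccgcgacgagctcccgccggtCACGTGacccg
NEU1: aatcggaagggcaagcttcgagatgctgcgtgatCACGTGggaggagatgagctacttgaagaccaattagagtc
A match is a description of the letters and not a site of binding. GAA, with 2 copies, was at a log2 fold change of 0.17 and NEU1, with 1, at 0.20 (rows summed), and neither passed the test.

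Leaving out libraries changed the sign of several estimates, including that of HEXA, the largest of the 11 rows in absolute size. The number of the 11 rows with an estimate above 0 was 8 with all libraries, 7 without negative 2 and 6 without both positive 1 and negative 2. Every NEU1 row was above 0 with all libraries, and these rows may share reads, so the count is not one of separate genes. Of all tested rows 48.1% had an estimate above 0, and the count was not tested against that share. GLB1 kept a negative estimate with each library left out in turn, between -0.33 without positive 5 and -0.084 without positive 1, and GUSB a positive one, between 0.34 without positive 1 and 0.60 without negative 6. HEXA turned from -0.47 to 0.021 without negative 6.

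**Figure D5:**
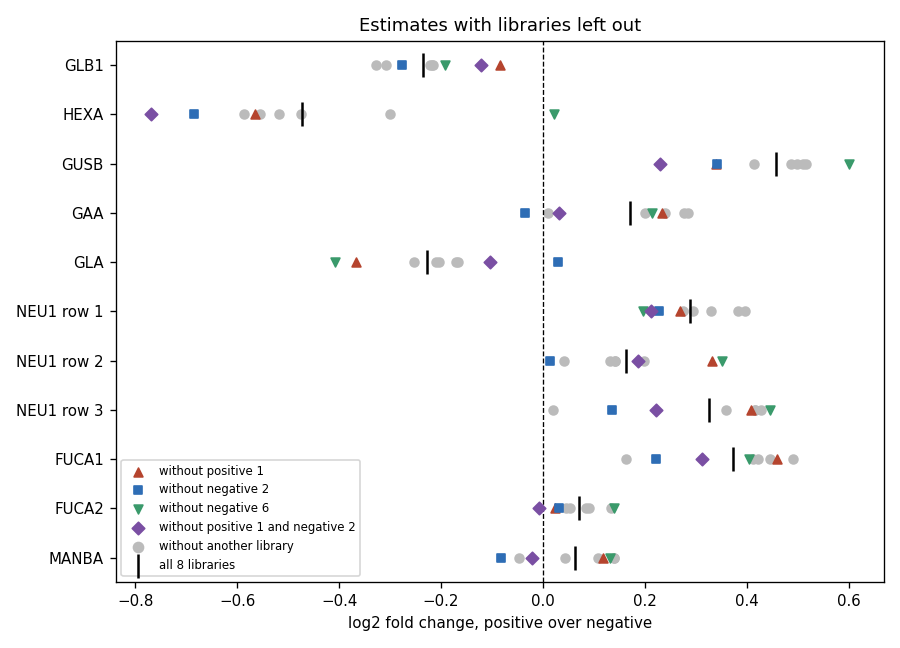
Log2 fold change of each row with all 8 libraries (black ticks) and with libraries left out (symbols as in the legend). GLB1 stays below 0 and GUSB above 0 under each removal, and HEXA reaches 0.021 without negative 6.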

How the data were processed

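RNA from sorted A549 cells was measured in 8 libraries, 4 positive and 4 negative. Per the labels' protocols, Trizol was used for RNA and an Ion Torrent amplicon kit for the libraries. Per the submitters' processing notes, fastp 0.20.1, Salmon 1.9 and GRCh38 were used. As deposited, each value is an estimated count for 1 row, a whole number that the authors had not scaled. No source used here gives the annotation, the summing to genes or a row filter. Rows that share a symbol were kept apart.

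Rows were filtered with filterByExpr (minimum count 10, total 15) and tested with edgeR 4.0.16 (R 4.3.3; TMM, quasi-likelihood, robust), Benjamini-Hochberg adjusted over 11351 rows at 0.05. Intervals are 95% and cover the spread between libraries; amplicon reads carry no molecular identifiers. Within-library ratios (0.5 counts added, NEU1 rows summed) were compared by exact two-sided permutation over 70 assignments and adjusted over 4 ratios, 1 of which is not reported here. The deviations and profile distances used log2-CPM with a prior count of 2. The fit was tested on simulated counts. Any 2 libraries differed by a chi-square of at least 7.98 per degree of freedom, so none was a copy.

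Genes, lists and the 2 libraries removed together were chosen with earlier results of these data known. Named were all 9 genes, CTSA, GM2A, PSAP, the 3 genes of smallest p of each list and the 5 nearest to GLB1 in profile; genes that overlap or resemble one of the 9, the tag receptors, SCARB2, GLB1L and GLB1L2 were added for their position or role. Alternatives were other scalings, filters, tools (DESeq2 1.42.0, limma 3.58.1 voom), robust estimation off, a threshold of 0.1, 5 counts added to the ratios and libraries left out. Summing the rows of a symbol was chosen after seeing the data.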

Additional observations from a re-analysis of the deposited data

Results flagged for a closer look

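In groups of 4 libraries, 30 sets of values (11 rows and 4 ratios in 2 groups) were examined for a library far from the other 3, by the gap to its neighbour as a share of the whole range. A share above 0.829 marks a library as apart, and chance marks about 1 in 20 groups. This was so for 4 of 30 sets. Negative 2 was far below the other negative libraries for MANBA (share 0.930; 16.1 CPM against 27.5 to 28.6) and for GAA (0.864; 25.2 CPM against 54.7 to 61.8). Positive 5 was above the other positive libraries for the third row of NEU1 (0.888; 4.19 CPM against 2.09 to 2.27), a row with 8 to 32 counts per library. Negative 6 had a lower GLB1 to CTSA log2 ratio than the other negative libraries (0.934; -1.93 against -1.69 to -1.67).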

How the results depend on the processing

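All tests were unpaired. Library numbers run from 1 to 8 over both groups and cannot show which stained and unstained libraries shared a culture. Whether the libraries form pairs is therefore unknown, and no paired analysis was made. Of the 11 rows, 0 passed the adjusted threshold under any alternative run. DESeq2's Wald test called 53 genes in all, none of them one of the 9 genes, and limma voom 0 (1857 at an unadjusted p under 0.05, edgeR 1631). With each library left out in turn edgeR called 0 to 1 genes, TBRG1 without negative 6 and CBWD5 without negative 8, both named after their values were seen. Reversed estimates among the 9 genes and the ratios, with the range over single libraries left out, were GAA at -0.036 without negative 2 (-0.036 to 0.29), GLA at 0.029 without negative 2 (-0.41 to 0.029), MANBA at -0.083 without negative 2 and -0.046 without positive 5 (-0.083 to 0.14), HEXA at 0.021 without negative 6 (-0.68 to 0.021) and the NEU1 to CTSA ratio at -0.019 without negative 2 (-0.019 to 0.13). Without both positive 1 and negative 2, FUCA2 was at -0.0088 and MANBA at -0.022. Among the list genes and partners refitted, TFEB was at -0.0095 without negative 2, GNPTAB at 0.0044 without both positive 1 and negative 2, and GM2A at 0.00057 without negative 8, 0.0033 with upper quartile scaling and 0.046 with library totals. The causes were not tested. Medians of lists moved by more than the spread between libraries for the mannose 6-phosphate genes (0.069 with upper quartile scaling, 0.12 with library totals, -0.024 to 0.11 with single libraries left out), for the TFE factors (0.70 with at least 50 counts, where TFE3 alone was left, and 0.16 to 0.48 with single libraries left out) and for the non-lysosomal glycosidases (0.087 to 0.28). Library totals raised the median of all genes by 0.12, and GLB1 was then at -0.13 and GUSB at 0.56. The split of rows at an unadjusted p under 0.05 was 52.4% higher in positive with TMM, 69.2% with upper quartile scaling and 78.2% with library totals. GUSB had an unadjusted p of 0.0508 without the low-count filter, 0.0724 in limma voom and 0.0525 to 0.124 with single libraries left out, apart from 0.0167 without negative 6. The half-width of a 95% interval was 0.54 on the log2 scale for the median gene.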
